A study of Mus musculus with 7 samples.

Results

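The glucose pathway of the liver was followed here through 31 genes in the livers of Zfp90 transgenic and wild-type mice. The genes comprise 18 of glycolysis, 6 of gluconeogenesis and 7 of glycogen metabolism, listed by symbol for their place in the pathway. Earlier results of these data were known when the list was made, so shares of its genes set beside shares of all features are descriptions. A gene was taken as measured where at least 1 probe carried exactly its symbol in the platform annotation. That held for 27 of the 31, read by 35 probes, out of 16468 named genes and 22218 features on the array. All 6 genes of gluconeogenesis and all 7 of glycogen were measured, and 14 of the 18 of glycolysis. Gpi1, Pfkfb1, Pfkfb3 and Eno1 had no such probe and were not analysed here.

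Glycolysis splits glucose into pyruvate in the cytosol, and gluconeogenesis runs most of the same steps backwards, with its own enzymes at the irreversible ones. The liver stores glucose as glycogen after a meal and releases it between meals, first from glycogen and then from gluconeogenesis. In the liver glucagon, acting through cyclic AMP, induces the gluconeogenic enzymes and insulin opposes it, while most glycolytic enzymes of the middle of the pathway serve every cell type. The feeding state and age of the animals are not given in the sources used here.

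Liver RNA came from 3 Zfp90 transgenic mice (ZFP90 tg, 1 female and 2 males; Zfp90 is a zinc finger protein) and from 4 wild-type littermates (WT, 1 female and 3 males). Each animal's RNA was set on the array against a shared liver pool made from 4 wild-type males and females. The sample labels give Cy5 for the animal and Cy3 for the pool, while the design text mentions dye swaps, and 1 ratio per animal was used here. Every value is a log2 ratio to that pool and carries no level of its own. The promoter of the transgene, the background strain and whether the pool holds RNA of these same wild-type animals are not given in the sources used here. Such 2-colour ratios cannot be set against each other between genes as amounts, and the identity of the tissue could not be checked by marker levels.

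Zfp90 itself read 0.34 in the transgenic female and 0.58 and 0.45 in the transgenic males, against 0.37 in the labelled wild-type female and -0.15, -0.29 and -0.11 in the wild-type males. The gene thus separated the males by genotype and not the females, so this animal is called the labelled wild-type female throughout. Direction was read from the Y-linked Kdm5d, which lay at -2.54 and -3.22 on the female arrays and between 0.14 and 0.66 on the male arrays. Over all features 3 pairs of arrays, each a female with a male, correlated below -0.3 (r of -0.495, -0.362 and -0.313), so the direction rests on that gene. Were every array read the other way round, all differences given here would take the opposite sign at the same p. Array medians ran from -0.01 to 0.03. The arrays differed in spread, with interquartile ranges from 0.16 in wild-type male 2 to 0.32 in the transgenic female, the widest.

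None of the 27 genes passed limma's threshold between transgenic and wild-type livers, where genotype and sex were fitted together in the 7 animals. The threshold was an adjusted p of 0.05 over all features, which 0 of 22218 reached (0.0%). At an unadjusted p under 0.05 stood 6 of the 27 (22.2%), beside 6.91% of all features. They were Slc37a4, Ppargc1a, Pygl and Gbe1, higher in transgenic animals, and Pck1 and Pfkm, lower. The 3 transgenic values exceeded all 4 wild-type values in 3 genes (11.1%, beside 3.17% of features), namely Slc37a4, Pygl and Gbe1, and lay below all of them in 0 genes (beside 2.84%). Those 3 gaps were narrow, at 0.02, 0.03 and 0.02 on the log2 scale, and with each array centred on its own median or with quantile normalization Pygl alone kept its gap, at 0.07 under either. The count of 3 became 10 without the labelled wild-type female, and 5 without wild-type male 2 or without wild-type male 3. Fewer wild-type arrays make such a gap easier to reach for any feature. The share of all features was not counted in these settings, so the rise is no result about the members. Over the 14 alternative settings no member passed, and the lowest adjusted p was 0.181.

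**Figure D1:**
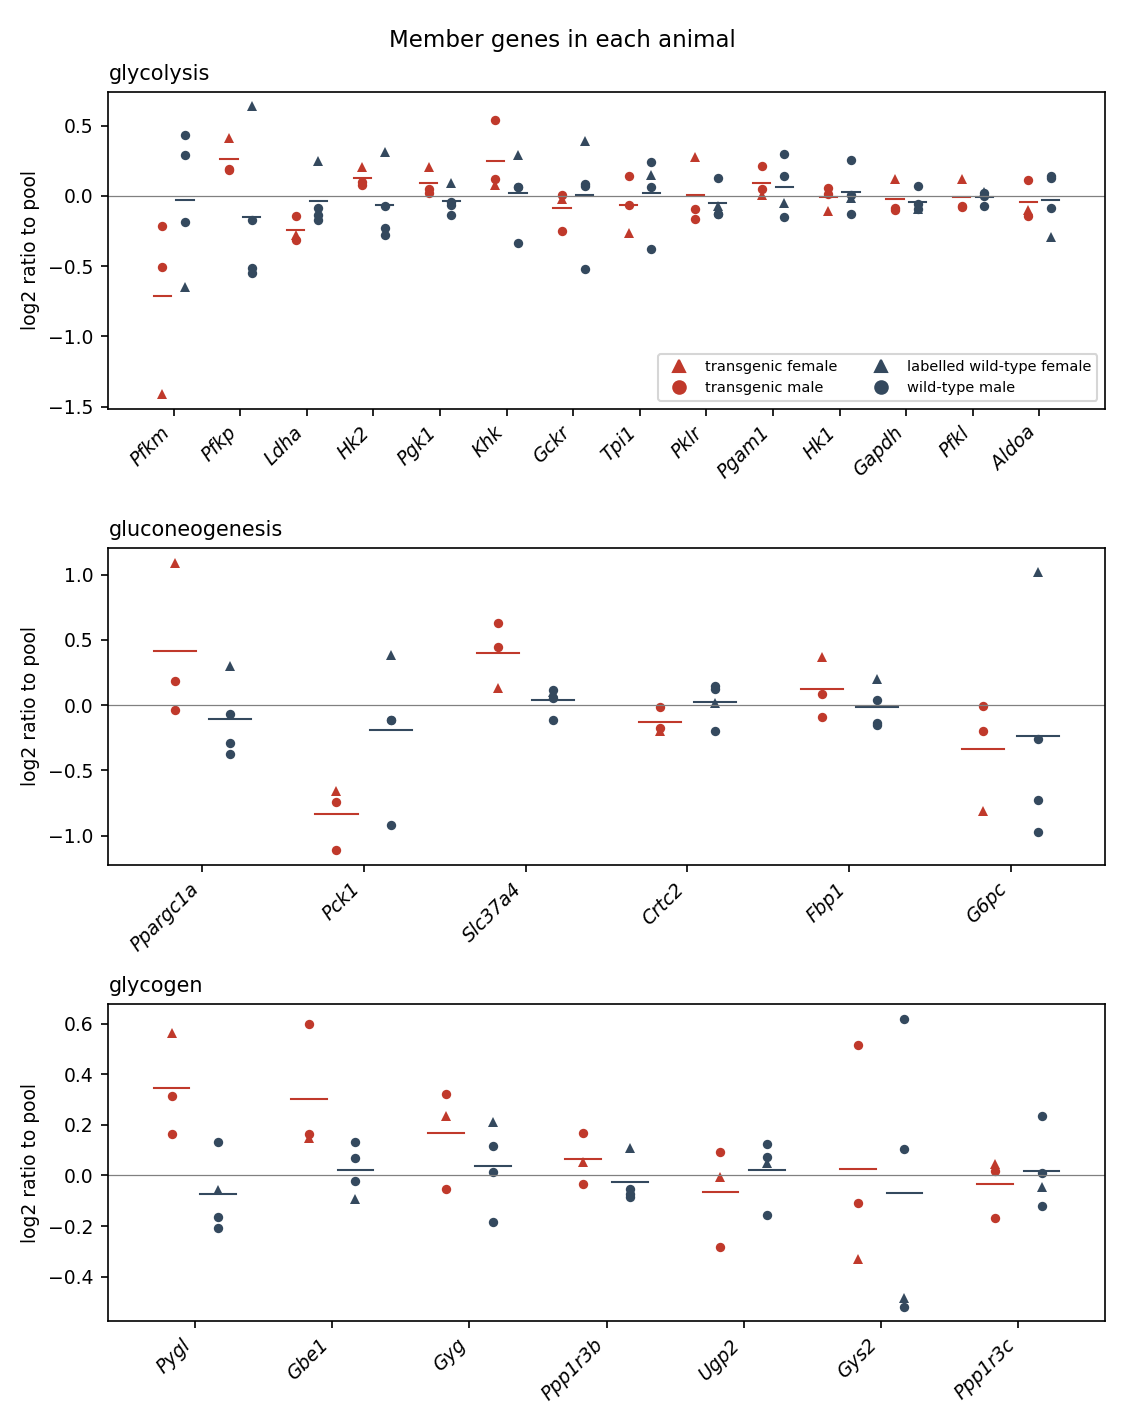
Log2 ratio to the wild-type pool (vertical axis) of each of the 27 measured genes in each animal, transgenic (red, left) and wild type (dark, right), females as triangles and males as circles, with bars at the group means and genes ordered by p within each step. Pygl, Gbe1 and Slc37a4 are the genes whose 3 transgenic values all lie above the 4 wild-type values, and G6pc spans the widest range among wild-type animals, from -0.97 to 1.02.

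Among glycolytic enzymes, phosphofructokinase was the step with the largest differences, in its muscle and platelet forms and not in its liver form. As a group the 14 glycolytic genes had 8 positive and 6 negative differences, with a median of 0.01 beside -0.01 over all features, 0 past the threshold and 1 at an unadjusted p under 0.05. Pfkm, the muscle-type subunit of phosphofructokinase, read -1.41 in the transgenic female and -0.50 and -0.22 in the transgenic males, against -0.65 in the labelled wild-type female and 0.29, -0.18 and 0.44 in the wild-type males. Within each sex the transgenic animals were lower, but females lay below males, so the genotypes overlapped. Its means were -0.71 ± 0.62 (SD, n = 3) for transgenic mice, against -0.03 ± 0.49 (SD, n = 4) for wild type. With sex in the model the difference was -0.61 ± 0.17 SE, 1.52-fold lower (adjusted p = 0.665 in limma). Pfkp, the platelet-type subunit, read 0.41 in the transgenic female and 0.19 and 0.19 in the transgenic males, against 0.64 in the labelled wild-type female and -0.55, -0.51 and -0.17 in the wild-type males. Both transgenic males were above all wild-type males, while the labelled wild-type female had the highest value of all 7. The difference was 0.36 ± 0.18 SE (1.28-fold higher, adjusted p = 0.746) over all animals and 0.60 ± 0.14 SE (1.52-fold higher, adjusted p = 0.390) in the males alone. Pfkl, the liver-type subunit, stayed between -0.08 and 0.12 in transgenic and between -0.07 and 0.03 in wild-type animals, a difference of -0.02 ± 0.09 SE.

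Pfkp and the hexokinase Hk2 split the animals in the way that the median of liver macrophage markers did. Hk2, a hexokinase with high affinity for glucose that is scarce in hepatocytes, read 0.20 in the transgenic female and 0.10 and 0.08 in the transgenic males, against 0.31 in the labelled wild-type female and -0.28, -0.07 and -0.23 in the wild-type males. The transgenic males lay above the wild-type males and the labelled wild-type female above every other, as for Pfkp. Its difference was 0.17 ± 0.11 SE over all animals (1.12-fold higher, adjusted p = 0.800) and 0.28 ± 0.11 SE in the males (adjusted p = 0.687). The median of 16 measured macrophage and Kupffer cell markers was 0.41 in the transgenic female and 0.36 and 0.16 in the transgenic males, against 0.79 in the labelled wild-type female and -0.59, -0.65 and -0.17 in the wild-type males. Of the 16 markers 14 had a positive genotype difference, and in 11 the transgenic males lay above all wild-type males, beside 11.2% of all features. All 16 were higher in females by the sex term, which covers both genotypes. Among the transgenic animals the female was below a male in several markers, Clec4f and C1qa among them. Not every marker followed the median. Cd163 read 0.16 in the labelled wild-type female, below every transgenic animal, and Cd68 (-0.06) and C1qb (-0.11) had negative differences in the males. In Khk, G6pc and Ppp1r3b too, the transgenic males lay above the wild-type males and the transgenic female below the labelled wild-type female. Array ratios give no level at which a marker could be called absent, and the part of macrophages in the values of Pfkp and Hk2 was not tested. In whole-liver RNA, more cells of a type and more RNA per cell cannot be told apart. Hk1, the hexokinase of most other tissues, ranged from -0.11 to 0.06 in transgenic and from -0.13 to 0.26 in wild-type animals.

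**Figure D2:**
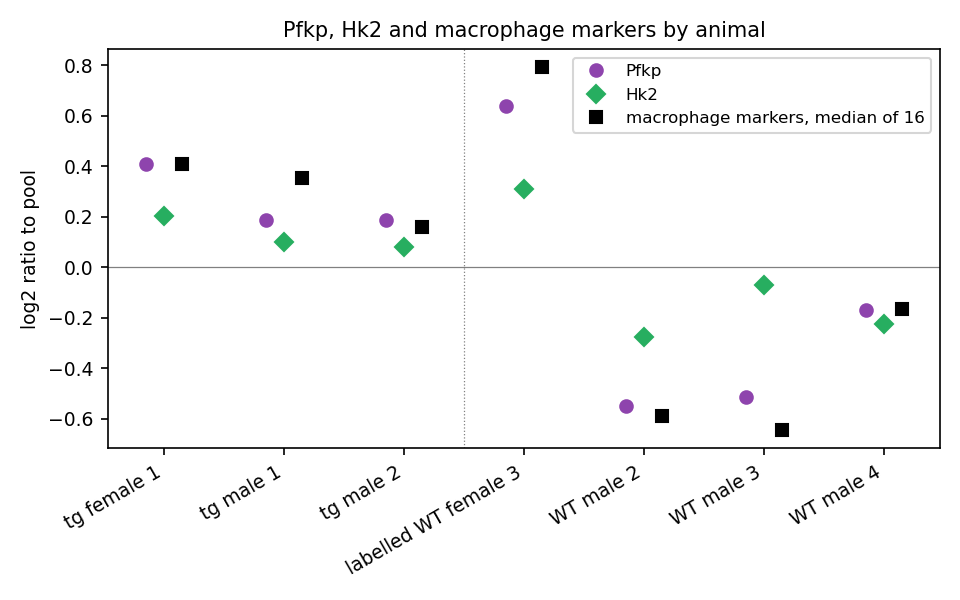
Log2 ratio to the pool (vertical axis) of Pfkp, Hk2 and the median of 16 macrophage markers in each animal, transgenic left of the dotted line and wild type right of it. All 3 were above 0 in the transgenic animals, highest in the labelled wild-type female (Pfkp 0.64, Hk2 0.31, markers 0.79) and below 0 in the 3 wild-type males.

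Of the remaining glycolytic genes, Ldha and Khk differed most between genotypes, and neither passed the threshold. Ldha, the lactate dehydrogenase subunit that favours lactate formation, read -0.28 in the transgenic female and -0.31 and -0.14 in the transgenic males, against 0.25 in the labelled wild-type female and -0.17, -0.09 and -0.14 in the wild-type males. Its group means were -0.24 ± 0.09 (SD, n = 3) for transgenic mice, against -0.04 ± 0.19 (SD, n = 4) for wild type, with a difference of -0.22 ± 0.11 SE (1.16-fold lower, adjusted p = 0.746). The labelled wild-type female had the highest value, and the 3 probes of Ldha did not agree, with differences of -0.29, -0.47 and 0.10. Khk, the ketohexokinase that starts fructose breakdown, read 0.08 in the transgenic female and 0.12 and 0.54 in the transgenic males, against 0.29 in the labelled wild-type female and 0.07, -0.34 and 0.06 in the wild-type males. Transgenic male 2 was the highest animal, and the difference of 0.22 ± 0.18 SE over all animals (adjusted p = 0.850) was 0.40 ± 0.19 SE in the males. Gckr, the regulatory protein that holds glucokinase inactive in the nucleus, read -0.02 in the transgenic female and -0.25 and 0.01 in the transgenic males, against 0.39 in the labelled wild-type female and 0.08, -0.52 and 0.07 in the wild-type males. Wild-type male 3 was the lowest and the labelled wild-type female the highest of the 7, and the difference of -0.12 ± 0.18 SE (adjusted p = 0.948) was 0.0019 in the males alone. Pklr, the liver pyruvate kinase that completes glycolysis, differed by 0.04 ± 0.12 SE and ranged from -0.17 to 0.27 in transgenic and from -0.13 to 0.13 in wild-type animals. The enzymes shared by glycolysis and gluconeogenesis differed by 0.00 ± 0.12 SE for the aldolase Aldoa, -0.08 ± 0.17 SE for triose phosphate isomerase Tpi1, 0.02 ± 0.10 SE for Gapdh, 0.11 ± 0.08 SE for the phosphoglycerate kinase Pgk1 and 0.04 ± 0.12 SE for the mutase Pgam1. The 2 probes of Tpi1 went opposite ways, 0.21 ± 0.09 SE and -0.36 ± 0.28 SE, so that its mean of -0.08 stands for neither. Of the 6 genes with more than 1 probe, 2 (Pgk1 and Pgam1) had probes of 1 sign, and Aldoa and Gapdh had probes on both sides of 0 with differences of no more than 0.07. A further 7 probes of Gapdh and 1 of Pgam1 carried pseudogene symbols as well and were left out.

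In gluconeogenesis the carboxykinase Pck1 had lower values in transgenic livers, while the transporter that serves its last step and a coactivator of the pathway had higher ones, and none of these passed the threshold. Of the 6 genes, 3 had positive and 3 negative differences. Their median was -0.02, and 0.20 in the males alone or without either female. The count past the threshold was 0, and 3 stood at an unadjusted p under 0.05.

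Pck1, the cytosolic phosphoenolpyruvate carboxykinase that commits oxaloacetate to glucose, read -0.66 in the transgenic female and -0.74 and -1.11 in the transgenic males, against 0.39 in the labelled wild-type female and -0.92, -0.12 and -0.11 in the wild-type males. All 3 transgenic values were low, but wild-type male 2 lay among them, and without that animal the genotypes were 0.54 apart. Group means were -0.84 ± 0.24 (SD, n = 3) for transgenic mice, against -0.19 ± 0.54 (SD, n = 4) for wild type. The difference was -0.69 ± 0.23 SE, 1.61-fold lower (adjusted p = 0.708 in limma), the largest of the 27 genes in size, and ranged from -0.89 to -0.55 over the alternatives.

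Slc37a4, the carrier that brings glucose 6-phosphate into the endoplasmic reticulum for its hydrolysis, read 0.13 in the transgenic female and 0.44 and 0.63 in the transgenic males, against 0.10 in the labelled wild-type female and 0.11, 0.05 and -0.12 in the wild-type males. The transgenic males stood clear of every wild-type animal, whereas the females were 0.04 apart. Means were 0.40 ± 0.25 (SD, n = 3) for transgenic mice, against 0.04 ± 0.10 (SD, n = 4) for wild type, a difference of 0.38 ± 0.13 SE (1.30-fold higher, adjusted p = 0.710), and 0.52 ± 0.12 SE in the males (1.43-fold higher, adjusted p = 0.388). G6pc, the catalytic subunit that hydrolyses what this carrier delivers, read -0.81 in the transgenic female and -0.01 and -0.20 in the transgenic males, against 1.02 in the labelled wild-type female and -0.97, -0.73 and -0.26 in the wild-type males. It was singled out after its values were seen. In the males the transgenic animals were higher, by 0.55 ± 0.21 SE (adjusted p = 0.677), and between the females the transgenic animal was lower, with a difference of -1.83 on the log2 scale (transgenic minus labelled wild type). The difference over all animals, -0.15 ± 0.43 SE (adjusted p = 0.986), therefore stands for neither sex.

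Ppargc1a, a coactivator that turns on gluconeogenic and mitochondrial genes, read 1.09 in the transgenic female and 0.18 and -0.04 in the transgenic males, against 0.30 in the labelled wild-type female and -0.29, -0.07 and -0.38 in the wild-type males. Females exceeded males of the same genotype, and transgenic animals exceeded wild-type animals of the same sex. The means were 0.41 ± 0.60 (SD, n = 3) for transgenic mice, against -0.11 ± 0.30 (SD, n = 4) for wild type, and the difference with sex in the model was 0.46 ± 0.14 SE (1.37-fold higher, adjusted p = 0.677). Crtc2, the CREB coactivator through which glucagon acts on the same genes, read -0.20 in the transgenic female and -0.01 and -0.17 in the transgenic males, against 0.01 in the labelled wild-type female and 0.15, -0.20 and 0.12 in the wild-type males, with overlapping genotypes. It differed by -0.14 ± 0.12 SE (adjusted p = 0.848). Fbp1, the fructose bisphosphatase that reverses phosphofructokinase, ranged from -0.09 to 0.37 in transgenic and from -0.15 to 0.20 in wild-type animals, a difference of 0.11 ± 0.10 SE.

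The promoters of the gluconeogenic genes with the largest differences, and of G6pc as their partner, are shown because CREB, the factor that cyclic AMP activates, is known to act on Pck1 and Ppargc1a. The sequences are RefSeq's for GRCm38.p6, windows of 300 bases around an annotated start, written 5′ to 3′ on the gene's strand. Capitals mark the letters TGACG, the core of the cyclic AMP response element, or its reverse complement CGTCA, which is the core on the opposite strand.
Pck1 (chr2:173152823-173153122, plus strand): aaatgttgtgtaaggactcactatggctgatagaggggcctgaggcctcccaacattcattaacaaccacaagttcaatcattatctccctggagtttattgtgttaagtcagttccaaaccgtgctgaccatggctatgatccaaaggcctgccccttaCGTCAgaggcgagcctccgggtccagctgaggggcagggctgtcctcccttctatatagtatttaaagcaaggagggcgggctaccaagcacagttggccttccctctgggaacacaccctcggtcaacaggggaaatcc
Ppargc1a (chr5:51567676-51567975, minus strand): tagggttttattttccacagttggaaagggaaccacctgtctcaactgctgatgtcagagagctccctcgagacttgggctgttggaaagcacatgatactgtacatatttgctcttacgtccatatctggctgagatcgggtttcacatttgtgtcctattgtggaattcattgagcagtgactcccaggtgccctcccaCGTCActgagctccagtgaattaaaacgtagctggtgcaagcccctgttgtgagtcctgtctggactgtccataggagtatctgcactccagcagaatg
Slc37a4 (chr9:44396696-44396995, plus strand): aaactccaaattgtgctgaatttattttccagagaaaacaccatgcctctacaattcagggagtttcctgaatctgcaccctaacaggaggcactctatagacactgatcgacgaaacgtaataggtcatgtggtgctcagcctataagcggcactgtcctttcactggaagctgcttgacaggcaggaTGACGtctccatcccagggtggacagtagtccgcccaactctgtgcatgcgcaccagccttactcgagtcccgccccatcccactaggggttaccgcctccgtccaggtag
G6pc (chr11:101367466-101367765, plus strand): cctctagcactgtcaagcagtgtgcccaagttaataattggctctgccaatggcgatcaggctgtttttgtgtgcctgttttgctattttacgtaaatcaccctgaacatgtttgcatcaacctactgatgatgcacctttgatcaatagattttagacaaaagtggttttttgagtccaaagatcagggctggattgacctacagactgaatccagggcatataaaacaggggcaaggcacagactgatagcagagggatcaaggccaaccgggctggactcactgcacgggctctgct
In Pck1 and Ppargc1a the core was on the opposite strand, 90 to 86 and 49 to 45 bases before the start. The Ppargc1a window is of the 1 start listed, which lies inside the annotated extent of the gene (chr5:51454249-52115853). In Slc37a4 the core lay 61 to 57 bases before the first of its 3 annotated starts, on the gene's own strand. At the second start it lay 214 to 210 bases before on the gene's strand and 82 to 78 before on the opposite one. The window of the third start did not hold it. Only exact letters were searched, so a variant form of the element would not have been found. TGACG and CGTCA are not in the window of G6pc. Of all 32851 promoters of this length 20.8% hold them on either strand, and of the 35 promoters of 24 measured members 28.6% do (8 genes: these 3, Pygl, Gyg, Hk2, Khk and Ldha), with Crtc2, Gys2 and Ppp1r3b missing from the sequence table. Of the 3 that hold the core here, Pck1 had a negative difference and Ppargc1a and Slc37a4 positive ones. The E-box CACGTG was in 14.3% of the members' promoters and 7.15% of all, and the forkhead letters TGTTTAC in 0 of the members' and 3.65% of all, both strands searched. An E-box followed by ACG shares its last letters with the core, so the motifs can overlap.

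Among glycogen genes the phosphorylase and the branching enzyme had the largest differences, both positive and neither past the threshold. Of the 7, 5 had positive and 2 negative differences. The median was 0.11, beside -0.01 over all features, and 0.00047 without transgenic male 2. The number past the threshold was 0 and that at an unadjusted p under 0.05 was 2. Pygl, the liver glycogen phosphorylase that releases glucose from glycogen, read 0.56 in the transgenic female and 0.16 and 0.32 in the transgenic males, against -0.06 in the labelled wild-type female and -0.16, 0.13 and -0.21 in the wild-type males. Every transgenic animal was above every wild-type one, by the smallest margin between transgenic male 1 and wild-type male 3. Averages were 0.35 ± 0.20 (SD, n = 3) for transgenic mice, against -0.07 ± 0.15 (SD, n = 4) for wild type. The difference of 0.41 ± 0.12 SE was 1.33-fold higher (adjusted p = 0.677) and ranged from 0.32 to 0.49 over the alternatives. Gbe1, the branching enzyme that builds side chains during glycogen synthesis, read 0.15 in the transgenic female and 0.16 and 0.60 in the transgenic males, against -0.09 in the labelled wild-type female and -0.02, 0.07 and 0.13 in the wild-type males. Transgenic male 2 stood apart, and the other transgenic animals were just above the highest wild-type male. The mean levels relative to the pool were 0.30 ± 0.26 (SD, n = 3) for transgenic mice, against 0.02 ± 0.10 (SD, n = 4) for wild type, a difference of 0.30 ± 0.12 SE (1.23-fold higher, adjusted p = 0.721), which was 0.16 at its lowest among the alternatives.

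The other 5 glycogen genes had differences of smaller size. Gyg, glycogenin, the protein primer of glycogen, read 0.23 in the transgenic female and -0.05 and 0.32 in the transgenic males, against 0.21 in the labelled wild-type female and 0.01, -0.18 and 0.12 in the wild-type males. Genotypes overlapped, and the difference of 0.11 ± 0.13 SE (adjusted p = 0.913) was -0.01 without transgenic male 2. Ppp1r3b, which targets protein phosphatase 1 to glycogen in the liver, read 0.05 in the transgenic female and -0.03 and 0.17 in the transgenic males, against 0.11 in the labelled wild-type female and -0.07, -0.06 and -0.08 in the wild-type males. Its difference was 0.08 ± 0.09 SE (adjusted p = 0.916), and the labelled wild-type female stood above the 3 wild-type males. Gys2, the liver glycogen synthase, was the most variable of the 7, from -0.33 to 0.52 in transgenic and from -0.52 to 0.62 in wild-type animals, and differed by 0.14 ± 0.27 SE. Ugp2, which makes the UDP-glucose used by the synthase, differed by -0.09 ± 0.12 SE, and the second targeting subunit Ppp1r3c by -0.06 ± 0.12 SE.

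Pygl's promoter is given beside its result, in the same form as those above, with the core in capitals 44 to 40 bases before the start on the opposite strand.
Pygl (chr12:70227634-70227933, minus strand): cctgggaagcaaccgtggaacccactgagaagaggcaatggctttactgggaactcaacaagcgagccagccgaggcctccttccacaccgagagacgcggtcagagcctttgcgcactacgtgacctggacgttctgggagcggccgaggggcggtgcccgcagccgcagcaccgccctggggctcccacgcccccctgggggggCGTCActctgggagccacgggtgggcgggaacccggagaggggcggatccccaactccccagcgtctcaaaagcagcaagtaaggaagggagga

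**Figure D3:**
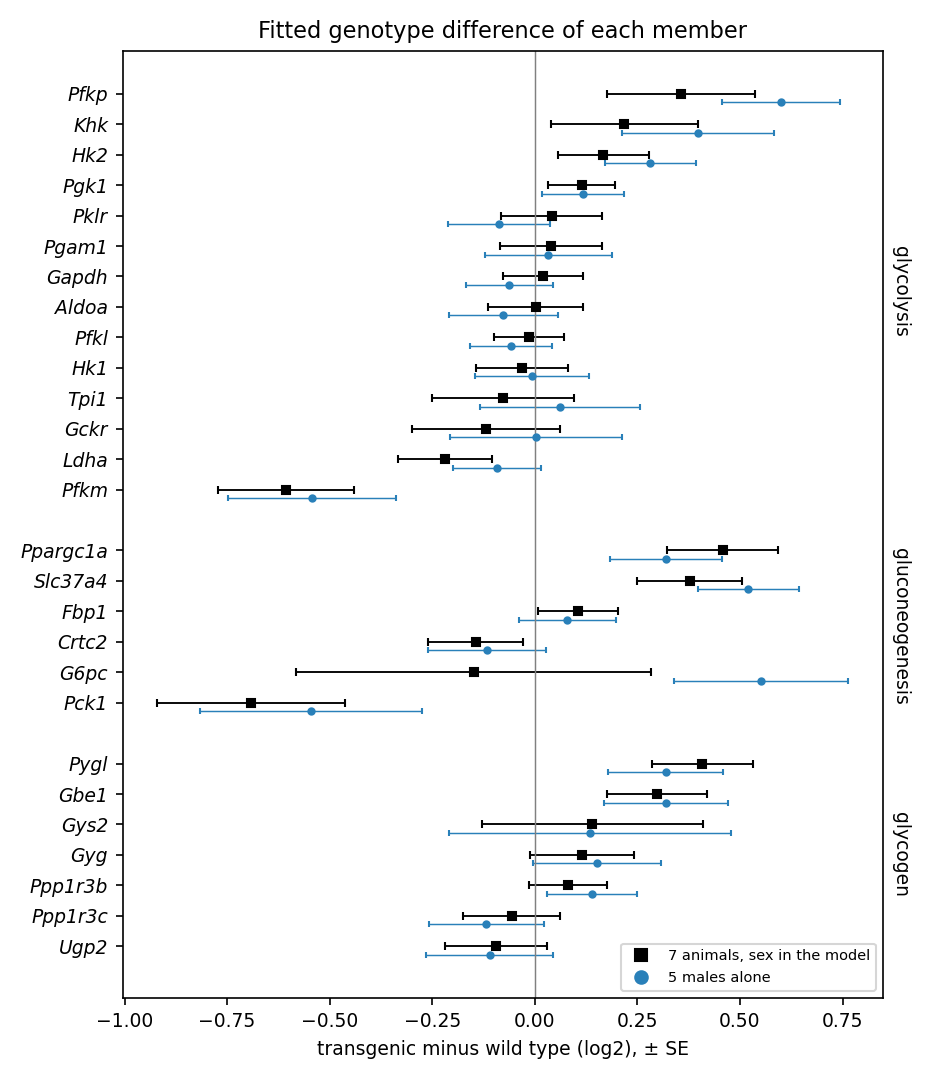
Fitted difference, transgenic minus wild type, on the log2 scale (horizontal axis) with its standard error for each measured gene, grouped by step, over 7 animals with sex in the model (black squares) and in the 5 males alone (blue circles). Pck1 (-0.69) and Pfkm (-0.61) lie farthest to the left, and G6pc moves from -0.15 over 7 animals to 0.55 in the males.

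Fitted in the 5 males alone, the 27 genes again held 0 past limma's threshold, beside 0.0315% of all features. At an unadjusted p under 0.05 stood 5 (18.5%, beside 6.96%): Pfkp, Slc37a4, Hk2 and G6pc higher and Pfkm lower in transgenic males. Both transgenic males lay above all 3 wild-type males in 10 genes (37.0%, beside 11.2% of features) and below them in 2 (7.41%, beside 11.4%). The 10 were Hk2, Pfkp, Khk, Pgk1, G6pc, Slc37a4, Ppargc1a, Pygl, Gbe1 and Ppp1r3b, and the 2 were Pfkm and Pfkl. The gap was widest in Pfkp (0.36) and Slc37a4 (0.33), and in Pfkl it was 0.0027. The lowest adjusted p in the males was 0.388 for Slc37a4.

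In 6 of these 12 genes the female difference had the opposite sign, as it did in 53.3% of the 5019 features that separated the males. In Hk2, Pfkl, Pfkp, Khk, G6pc and Ppp1r3b the transgenic female lay on the opposite side of the labelled wild-type female, a pattern found in 22.2% of the 27 genes and 12.0% of all features, the members having separated the males more often to begin with. With 1 female per genotype, animal, label and sex cannot be told apart in these values. The spread among females of a genotype was not measured, so the SE and p of the interaction rest on the males alone. The interaction of genotype and sex, fitted by limma in a model of its own, called 0 of the 27 (0.072% of all features), with 2 at an unadjusted p under 0.05 (7.41%, beside 8.42%), G6pc and Pfkp. For G6pc the female difference minus the male difference was -2.39 ± 0.39 SE (adjusted p = 0.198). Without wild-type male 4, whose value of -0.26 was the highest of the wild-type males, it was -2.58. For Pfkp it was -0.83 ± 0.26 SE (adjusted p = 0.485), and the interaction among macrophage markers was negative in 14 of 16, with a median of -1.19.

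**Figure D4:**
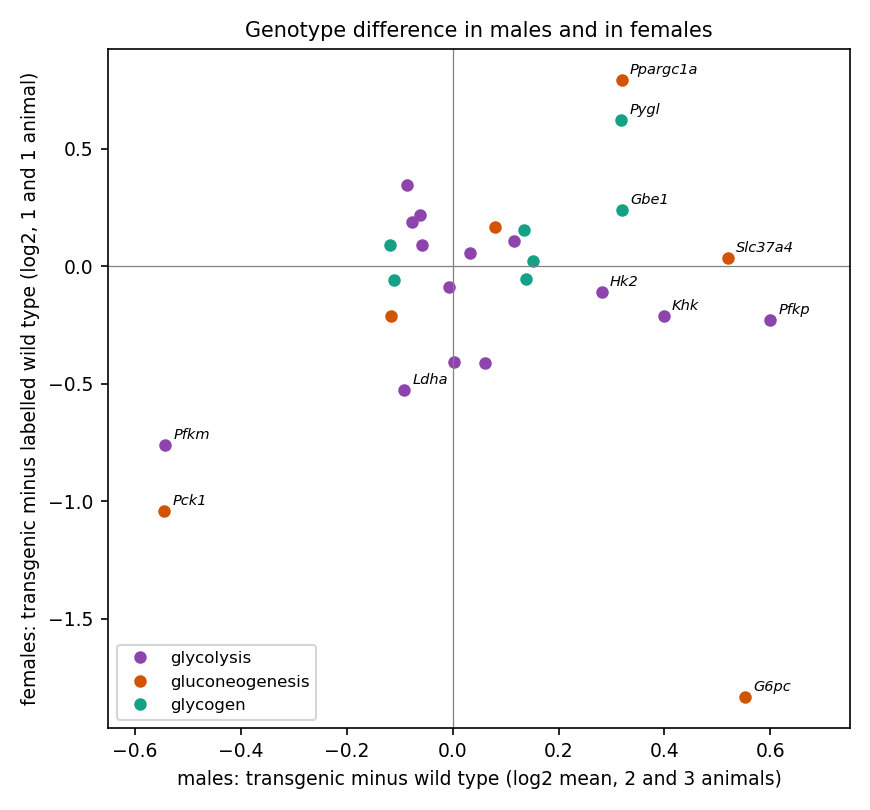
Difference between transgenic and wild-type means on the log2 scale in males (horizontal axis, 2 and 3 animals) and between the single females (vertical axis), 1 point per gene coloured by step. Pck1 and Pfkm lie in the lower left and Ppargc1a, Pygl and Gbe1 in the upper right, while G6pc is at 0.55 in males and -1.83 in females.

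Females differed from males in 0 of the 27 genes at limma's threshold, beside 0.351% of all features, and in 5 at an unadjusted p under 0.05 (18.5%, beside 9.23%). Pfkm averaged -1.03 in 2 females and -0.03 in 5 males, a difference of -0.94 ± 0.18 SE (adjusted p = 0.123). Without wild-type male 3 it was -1.03 ± 0.11 SE and passed (adjusted p = 0.0224), while in the other 11 alternatives of the sex term no member did. The share of all features past the threshold without that animal was not counted. Ppargc1a averaged 0.70 in females and -0.12 in males, a difference of 0.77 ± 0.15 SE (adjusted p = 0.121). Higher in females at the unadjusted level were also Pfkp (0.66 ± 0.20 SE), Fbp1 (0.33 ± 0.11 SE) and Hk2 (0.32 ± 0.12 SE).

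Other genes of the same pathways, 56 measured of 70 listed symbols with aliases included, likewise held 0 past the threshold. Differences were positive in 25 and negative in 31, with a median of -0.03. At an unadjusted p under 0.05 stood 3 of the 56, 1 higher and 2 lower, beside 6.91% of all features. The one higher was Tkfc, the triokinase that takes up the glyceraldehyde of fructose breakdown after Khk. It read 0.98 in the transgenic female and 0.91 and 0.78 in the transgenic males, against 0.34 in the labelled wild-type female and -0.16, 0.09 and -0.67 in the wild-type males. No wild-type value reached the lowest transgenic one, which held for no other of the 56, beside 3.17% of all features. Epm2a, the glycogen phosphatase laforin, was the 1 gene with every transgenic value below the wild-type ones, beside 2.84%. Its gap was narrow, from -0.043 in transgenic male 2 to -0.031 in the labelled wild-type female, and its difference was -0.09 ± 0.08 SE. The means of Tkfc were 0.89 ± 0.10 (SD, n = 3) for transgenic mice, against -0.10 ± 0.43 (SD, n = 4) for wild type, and the difference was 0.96 ± 0.19 SE (1.95-fold higher, adjusted p = 0.508). Of the 16 other glycolytic genes 9 were positive, and the next by p was the hexokinase-like Hkdc1 (-0.15 ± 0.11 SE). Of 18 other gluconeogenic genes 7 were positive, with Fbp2, the muscle form of fructose bisphosphatase, at -0.31 ± 0.13 SE and the transcription factor Creb1 at 0.16 ± 0.08 SE. Of 22 other glycogen genes 9 were positive, with Stbd1, which binds glycogen to membranes, at -0.27 ± 0.11 SE and the phosphoglucomutase Pgm1 at -0.28 ± 0.12 SE. Stbd1 was lowest in both females, -0.91 in the transgenic and -0.35 in the labelled wild-type animal.

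Among marker lists for other cells the genotype medians were 0.00 for 10 lymphocyte genes, 0.01 for 11 endothelial, 0.06 for 9 stellate, 0.09 for 5 bile duct, 0.14 for 6 adipocyte, 0.11 for 7 skeletal muscle, 0.22 for 4 red cell and 0.10 for 6 exocrine pancreas genes. The corresponding value was 0.37 for the 16 macrophage markers and -0.04 for 10 hepatocyte genes. These medians cover genes on both sides of 0. Of the 10 hepatocyte genes 5 stood at an unadjusted p under 0.05, 2 higher and 3 lower, beside 6.91% of all features. The urea cycle enzymes Cps1 (0.59) and Ass1 (0.60) lay above all wild-type values, and the cytochrome Cyp2e1 (-0.49) and the apolipoprotein Apob (-0.43) below them. In the adipocyte list the glucose transporter Slc2a4 differed by 2.04 over all animals (adjusted p = 0.653) and by 2.94 in the males, where it passed the threshold. Between the females Slc2a4 was not higher in the transgenic animal, at 0.53 against 0.66 in the labelled wild-type female. Cps1, Ass1, Cyp2e1, Apob and Slc2a4 were picked out after their values were seen. The muscle list had 4 positive and 3 negative differences, with a median of 0.0048 in the males alone. The part of any of these cell types in the members' values was not tested.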

How the data were processed

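Liver RNA of 7 mice was measured on 2-colour arrays, each animal against a wild-type pool. The deposited table holds 1 log10 ratio for each of 23574 probes and 7 samples, with 0 missing values, ending at -2 and 2. Per the labels, RNA was DNase-treated and the profiling involved dye swaps. The sources used here do not give how the authors combined the swaps, corrected background or normalized. Scanner signals were not analysed, so signal over background is unknown and the number of arrays limits precision.

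Multiplying by 3.32 turned the deposited log10 ratios into log2. The log base was read from the limits of the values, and direction from Kdm5d. The platform annotation gave 17824 probes 1 symbol, 50 several and 5700 none, and 0 symbols needed updating to GRCm38.p6. Probes of 1 gene were averaged, giving 22218 features.

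Differences were fitted with limma 3.58.1 (R 4.3.3), lmFit and eBayes, with Benjamini-Hochberg adjustment over all features. The script was tested on simulated data. Full statistics were given to the 4 members with the smallest p in each step and to the regulators Gckr, Ppargc1a and Crtc2, and for other pathway genes to the 2 with the smallest p in each step. Khk and G6pc lay outside this rule and were shown in every animal after their values were seen. Members and gene lists were chosen with earlier results of these data known. Alternatives were median centring, quantile normalization, no sex term, males alone, a robust variance model, single probes, named genes alone and leaving out each animal. The groups share 1 replicate number, and no block was fitted.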

Additional observations from a re-analysis of the deposited data

Results flagged for a closer look

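Ppp1r3b, a targeting subunit of protein phosphatase 1, stood apart in 1 wild-type animal. Its log2 ratio was 0.11 in the labelled wild-type female, against -0.08 to -0.06 in the 3 wild-type males, a gap of 0.854 of the group's range, past Dixon's limit for 4 samples. It was 1 of 33 genes looked at in this way, and chance alone marks about 1 in 20. Without that array the transgenic animals lay above the wild-type animals in this gene by 0.02.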

How the results depend on the processing

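Over 14 alternatives the count of the 27 genes past the threshold between genotypes stayed at 0. The count over all features was 0 to 7 when single animals were left out and 7 in the males alone. Genes whose genotypes did not overlap numbered 3, and 1 with median centring or with quantile normalization. They numbered 12 in the males alone and 3 to 10 with 1 animal left out. With fewer animals such a gap is easier to reach for any feature. The gluconeogenesis median, -0.02 over all animals, was 0.20 in the males alone and ran from -0.070 to 0.20 with 1 animal left out. The glycogen median ran from 0.00047 to 0.14 with 1 animal left out. The sex count was 0 to 1 with 1 animal left out, the call being Pfkm. The interaction of G6pc, whose spread comes from the males alone, was -2.58 without wild-type male 4. Leaving out either female gives the fit of the males alone for the genotype, since a sex held by 1 animal takes up its own term. Among the 13 genes with full statistics 2 changed sign: Gckr was 0.0019 in the males alone and ran from -0.27 to 0.0019 with 1 animal left out, and Gyg ran from -0.012 to 0.21. Differences of other genes crossed 0 too, G6pc running from -0.46 to 0.55. For Tpi1 the difference moved to -0.36 with a single probe. The cause of these changes was not tested, beyond the animals or features each alternative removes.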
